A study of Mus musculus with 69 samples.

Results

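The cyclin-dependent kinase (CDK) inhibitors are a family of 7 genes, 3 of the CIP/KIP group (Cdkn1a, Cdkn1b and Cdkn1c) and 4 of the INK4 group (Cdkn2a, Cdkn2b, Cdkn2c and Cdkn2d). They were taken by gene symbol from a bulk RNA-seq table of 55367 symbols, 42280 of which had at least 1 count, and all 7 were found. Every member is described here in 69 libraries, from 23 conditions with 3 replicates each, and all 7 passed the low-count filter at every time point. Cdkn1a was the member with the widest difference by genotype at every time point but 72 h. In p53KO–emiRFP cells it stood at 3.36 to 38.5% of its level in WT–emiRFP cells over the 6 time points. At 72 h Cdkn2b stood lower, at 35.1% against 38.5% for Cdkn1a. Cdkn2b was also lower in p53KO–emiRFP cells from 48 h, whereas Cdkn1b and Cdkn1c were higher in them from 96 h. In WT–mCherry cells members differed by neighbour from 96 h: with p53KO cells as neighbours Cdkn1a was higher than with WT cells, and Cdkn1c was higher at 96 h and lower at 144 h.

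CDK inhibitors hold back the cell cycle by binding the kinases that drive it. CIP/KIP proteins act mainly on cyclin E–Cdk2 and cyclin A–Cdk2 complexes, while INK4 proteins bind Cdk4 and Cdk6 and keep D-type cyclins from activating them, so that pocket proteins such as Rb1 stay bound to E2F factors. Cdkn1a, which encodes p21, is the textbook transcriptional target of p53 and carries out much of the G1 arrest that p53 can impose, and mouse embryonic stem (mES) cells are known for short G1 phases and for low levels of most of these inhibitors.

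The libraries came from mosaic gastruloids, aggregates of mES cells that elongate and form germ layer derivatives in culture, and from the monocultured mES cells at 0 h. All lines were clones of E14Tg2A mES cells: WT–mCherry, with H2B–mCherry driven by the EF1α promoter; WT–emiRFP, with H2B–emiRFP670 driven by the CAG promoter; and p53KO–emiRFP, made from WT–emiRFP with Cas9 by a frameshift in Trp53 and represented by 1 clone. Gastruloids mixed WT–mCherry with WT–emiRFP cells (WT + WT) or with fewer p53KO–emiRFP cells (WT + p53KO), and each colour was sorted by flow cytometry at 48, 72, 96, 120 and 144 h after aggregation. In the standard gastruloid protocol of the study the Wnt agonist CHIR99021 was given from 48 to 72 h. Replicates came from 3 experiments done at separate times, but the p53KO genotype is 1 clone, so that clone and genotype cannot be told apart. From 48 h the genotype comparison also set p53KO–emiRFP cells of WT + p53KO gastruloids against WT–emiRFP cells of WT + WT gastruloids. These were seeded with 150 + 25 and 150 + 150 cells. There genotype cannot be told apart from gastruloid type and seeding. In the neighbour comparison the neighbours likewise differed both in genotype and in seeded number. Trp53 itself, the targeted gene, stood in p53KO–emiRFP cells at 8.33 to 11.4% of its WT–emiRFP level. The highest of these libraries had 2589 normalised counts and the lowest WT library 13902. Library totals ran from 26722541 to 72981570 counts.

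Positions are those of the mouse genome GRCm38. Cdkn1a is at chr17:29090976-29100727 on the plus strand and Cdkn1b at chr6:134920401-134925513 on the plus strand. Cdkn1c, a maternally expressed imprinted gene, is at chr7:143458339-143461050 on the minus strand. Cdkn2a (chr4:89274471-89294653) and Cdkn2b (chr4:89306299-89311039) are neighbours on the minus strand of chromosome 4, and Cdkn2c lies further along the same strand (chr4:109660876-109667189). Cdkn2d is at chr9:21288410-21291407 on the minus strand. The counts were made per gene, so the 2 products of Cdkn2a, p16Ink4a and the p53-stabilising p19Arf, which start from separate promoters, could not be told apart. Gene models on the opposite strand overlap Cdkn1a and Cdkn1c: that at Cdkn1c, Gm44732, had at most 2 counts in any library, and that at Cdkn1a is not a symbol of the table.

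Promoter windows of 300 bases, from 250 before to 50 after an annotated start, were given by RefSeq (GRCm38.p6) for 6 of the 7 members, 9 windows in all. The window at the upstream start of Cdkn1a is shown because it holds the letters of a p53 response element, p53 being the product of the disrupted gene. The window of Cdkn2b is shown because Cdkn2b was the other member that was lower in p53KO–emiRFP cells at most time points. Capitals mark half-sites of the p53 response element, and the window without capitals held no such pair of half-sites.
Cdkn1a, upstream start (chr17:29090729-29091028, plus strand): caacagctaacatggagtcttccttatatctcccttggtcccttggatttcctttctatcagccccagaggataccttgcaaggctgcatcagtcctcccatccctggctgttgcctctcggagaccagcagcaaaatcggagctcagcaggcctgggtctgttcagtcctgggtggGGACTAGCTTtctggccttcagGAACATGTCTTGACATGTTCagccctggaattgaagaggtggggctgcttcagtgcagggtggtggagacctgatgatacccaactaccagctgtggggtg
Cdkn2b (chr4:89310983-89311282, minus strand): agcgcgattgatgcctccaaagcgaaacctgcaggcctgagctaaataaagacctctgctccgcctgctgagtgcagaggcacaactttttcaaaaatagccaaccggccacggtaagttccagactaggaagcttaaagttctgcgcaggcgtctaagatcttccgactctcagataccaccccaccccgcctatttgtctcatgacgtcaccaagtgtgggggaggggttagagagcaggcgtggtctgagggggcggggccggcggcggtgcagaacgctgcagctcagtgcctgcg
In the Cdkn1a window, an exact pair of half-sites, GGACTAGCTT and GAACATGTCT, was separated by 12 bases (chr17:29090906-29090937). The second of them also formed a pair without spacer with TGACATGTTC, with 1 mismatch to the element (chr17:29090928-29090947). An exact pair with a spacer of 0 to 13 bases was present in 24 of 32851 windows of all genes (0.0731%), and a pair without spacer and with at most 1 mismatch in 29 (0.0883%). None of the other 8 windows of members held either, including the second Cdkn1a window, which starts 2790 bases downstream. The Tcf/Lef letters CTTTGAT, searched on both strands because the gastruloids received a Wnt agonist, were present in 1225 windows (3.73%) and in no window of a member. Such matches describe letters in these windows and not binding.

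Levels of different members were compared as mean normalised counts per kb of exon, where a normalised count is a count divided by the size factor of its library. On this scale Cdkn1a was the highest member in 14 of 23 conditions, Cdkn1c in 7 and Cdkn2a in 2. Cdkn2c was the lowest in 20 conditions, and Cdkn2b the second lowest in 20. The share of the summed level of the family that each member held moved most for Cdkn1a, between 1.53 and 75.0%, followed by Cdkn1c, between 5.03 and 52.5%. Cdkn2a held 4.55 to 30.6%, Cdkn1b 6.43 to 21.3%, Cdkn2d 4.93 to 20.9%, Cdkn2b 1.04 to 6.60% and Cdkn2c 0.420 to 1.83%.

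**Figure D1:**
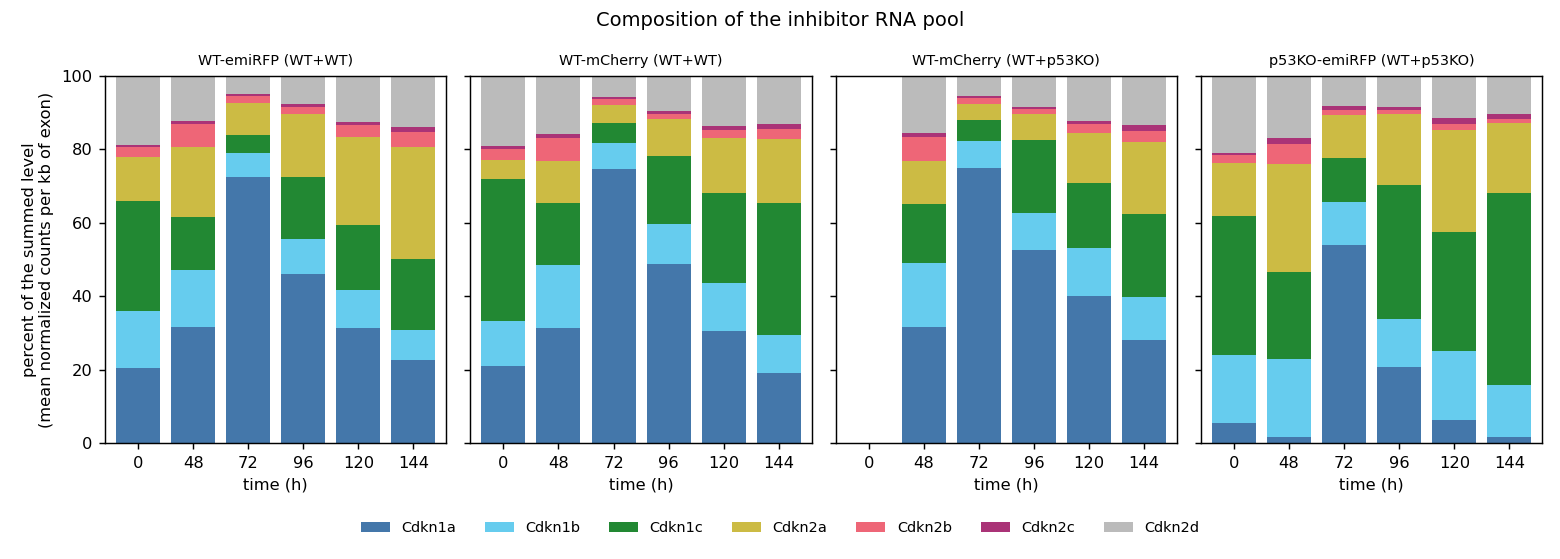
Share of each CDK inhibitor in the summed mean normalised counts per kb of exon of the 7 members (y axis, percent) in each population and time point (x axis, hours), with monocultured clones at 0 h. Cdkn1a took 72.4% in WT–emiRFP cells at 72 h and 1.53% in p53KO–emiRFP cells at 144 h, where Cdkn1c took 52.5%.

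The summed level of the family peaked with Cdkn1a at 72 h in WT–emiRFP cells. In these cells it was, per kb of exon, 2434, 2371, 6188, 3645, 3138 and 3357 at 0, 48, 72, 96, 120 and 144 h. In p53KO–emiRFP cells it was 1968, 1507, 3202, 2961, 2467 and 3890 at the same times. The sum was thus lower in p53KO–emiRFP cells up to 120 h and higher at 144 h, when Cdkn1c held 52.5% of it and Cdkn1a 1.53%. These sums describe levels and were not tested.

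Cdkn1a, encoding p21, was lower in p53KO–emiRFP cells at every time point, with all 3 pairs of replicates in that direction and no overlap of the groups. At 0 h the 3 WT–emiRFP replicates had 2122, 1609 and 1541 normalised counts and the p53KO–emiRFP replicates 424, 385 and 349. At 48 h WT–emiRFP cells had 2652, 2695 and 2628, and p53KO–emiRFP cells 109, 89.4 and 69.5. The gap at 48 h was the widest of the 6 time points, with the lowest WT–emiRFP value more than an order of magnitude above the highest p53KO–emiRFP value. At 72 h the values were 16908, 15439 and 15441 in WT–emiRFP cells against 6485, 5817 and 6102 in p53KO–emiRFP cells. At 96 h they were 6114, 6109.9 and 5688 against 2259, 2463 and 1825. Both genotypes were thus high at 72 h and lower again at 96 h. At 120 h WT–emiRFP cells had 3513, 3673 and 3334 and p53KO–emiRFP cells 559, 612 and 453. At 144 h the values were 2820.1, 2912 and 2366 against 224, 206 and 205. As a share of the WT–emiRFP mean, the p53KO–emiRFP mean was 22.0, 3.36, 38.5, 36.6, 15.4 and 7.84% at the 6 successive times.

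**Figure D2:**
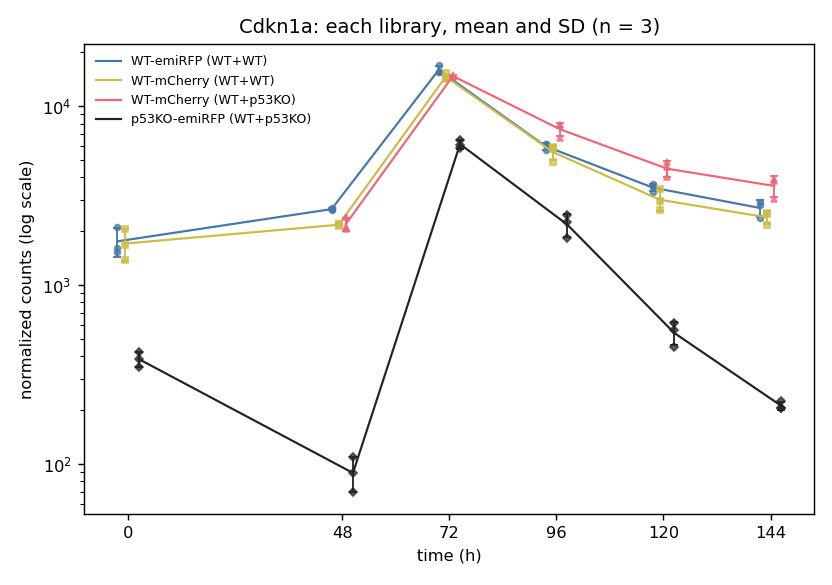
Normalised counts of Cdkn1a (y axis, log scale) over time (x axis, hours after aggregation, with monocultured mES cells at 0 h) in the 4 sorted populations. Points are libraries, and lines with bars are means ± SD of 3 replicates. All populations peak at 72 h, p53KO–emiRFP cells lie lowest throughout, and from 96 h WT–mCherry cells beside p53KO cells lie above those beside WT cells.

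By edgeR's quasi-likelihood test, with Benjamini-Hochberg adjustment over all genes tested, the log2 fold change of Cdkn1a between p53KO–emiRFP and WT–emiRFP cells was -2.18 (SE 0.16, adjusted p = 4.2e-06) at 0 h and -4.90 (SE 0.10, adjusted p = 9.4e-15) at 48 h. It was -1.38 (SE 0.06, adjusted p = 9.9e-11) at 72 h and -1.45 (SE 0.10, adjusted p = 1.4e-07) at 96 h. It then widened to -2.69 (SE 0.12, adjusted p = 7.2e-10) at 120 h and -3.67 (SE 0.12, adjusted p = 8.1e-11) at 144 h. The highest adjusted p under any alternative of the analysis was 0.00092, at 96 h. In sorted bulk populations, fewer cells with a transcript and less of it per cell cannot be told apart.

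Between 48 and 72 h, the interval of the CHIR99021 pulse in the protocol, Cdkn1a rose in WT cells and in p53KO–emiRFP cells. Over the WT populations the log2 fold change from 48 to 72 h was 2.69 (SE 0.07, edgeR adjusted p = 9.1e-39), a 6.47-fold rise. In p53KO–emiRFP cells it was 6.11 (SE 0.16, edgeR adjusted p = 3.5e-37), a 69-fold rise from a low level. The difference between these steps, tested as the interaction of genotype and time against WT–emiRFP cells, was 3.53 (SE 0.19, edgeR adjusted p = 2.3e-20). From 0 to 48 h the genotypes moved in opposite directions: Cdkn1a rose by 0.42 on the log2 scale in WT cells (SE 0.08, edgeR adjusted p = 1.8e-06) and fell by 2.12 on the log2 scale in p53KO–emiRFP cells (SE 0.17, edgeR adjusted p = 1.7e-16), with an interaction of -2.72 (SE 0.21, adjusted p = 8.9e-15). From 72 to 96 h it fell in both, by 1.27 in WT and by 1.49 in p53KO–emiRFP cells, and the interaction did not pass the test (-0.08, SE 0.16, edgeR adjusted p = 0.84). The later falls were steeper in p53KO–emiRFP cells, with interactions of -1.24 (SE 0.17, edgeR adjusted p = 2.3e-08) from 96 to 120 h and -0.98 (SE 0.18, edgeR adjusted p = 4.7e-05) from 120 to 144 h. These steps compare sorted populations at successive times and so include any change in their cell types.

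Ordered by mean level, the 3 WT populations at 72 h headed the 23 conditions, p53KO–emiRFP cells at 72 h came 5th, and p53KO–emiRFP cells at 48 h came last with 89.2 ± 19.7 (SD, n = 3). Of the 22 pairs of neighbours in this order, 11 overlapped in their replicate values. The condition means spanned 178-fold, against 8.52-fold for Cdkn2a, 6.71-fold for Cdkn1c, 4.72-fold for Cdkn2c, 4.20-fold for Cdkn2b, 2.00-fold for Cdkn1b and 1.92-fold for Cdkn2d. Cdkn1a therefore varied most of the family, and Cdkn1b and Cdkn2d varied least.

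In WT–mCherry cells, Cdkn1a was higher from 96 h when the neighbours were p53KO cells. At 96 h the replicates beside p53KO cells had 7799, 7811 and 6674 normalised counts and those beside WT cells 5788, 5928 and 4903. At 120 h the values were 4560.4, 4864 and 3996 against 2962, 3424 and 2613. At 144 h they were 3826, 3911 and 3015 against 2524, 2494 and 2156. The groups did not overlap at any of these times and all 3 pairs ran the same way. The log2 fold change was 0.42 at 96 h (SE 0.10, edgeR adjusted p = 0.031, and 3.6e-07 with the replicate number as a block). It was 0.58 at 120 h (SE 0.11, edgeR adjusted p = 0.0070, blocked 1.4e-06) and 0.58 at 144 h (SE 0.10, edgeR adjusted p = 0.0014, blocked 2.4e-06). The call at 96 h was lost without replicate 1 (adjusted p = 0.41) and without replicate 2 (adjusted p = 0.15), and that at 120 h without replicate 1 (adjusted p = 0.22), whereas that at 144 h held with each replicate left out. At 48 and 72 h the difference was 0.01 at each time (SE 0.07 and 0.06), with edgeR adjusted p = 0.99 and 0.98.

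RNA of emiRFP cells was present in some sorted WT–mCherry libraries. It was judged by H2bc14, which was high in emiRFP libraries and low in WT–mCherry libraries (8948 against 64.6 normalised counts in replicate 1 of WT + WT gastruloids at 48 h). The estimate assumes that H2bc14 reads come from the H2B part of the emiRFP transgene, which was not tested. On this estimate emiRFP RNA made up at most 2.01% of WT–mCherry libraries beside WT cells. Beside p53KO cells it made up 1.39 to 3.49% at 96 h, 2.91 to 7.35% at 120 h, and 16.8, 2.26 and 9.10% in replicates 1 to 3 at 144 h. At 144 h p53KO–emiRFP cells had 212 ± 10.7 normalised counts of Cdkn1a and WT–mCherry cells beside WT cells 2392 ± 204 (SD, n = 3). With the estimated emiRFP RNA subtracted, the Cdkn1a log2 fold change by neighbour was 0.45 at 96 h, 0.65 at 120 h and 0.72 at 144 h. With nothing subtracted and replicate 1 left out, it was 0.57 at 144 h.

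Cdkn1b, encoding p27, was the steadiest of the CIP/KIP members and separated the populations late. At 144 h WT–emiRFP cells had 1245, 1355 and 1170.2 normalised counts and p53KO–emiRFP cells 2525, 2615 and 2395. At 120 h the values were 1469, 1423 and 1479 against 2009, 2157 and 2225. At 96 h they were 1581, 1532 and 1577 against 1727, 1829 and 1769. The groups were apart at all of these times, and the mean of WT–emiRFP cells went from 1564 to 1257 while that of p53KO–emiRFP cells went from 1775 to 2512. The log2 fold change was 0.18 at 96 h (SE 0.05, edgeR adjusted p = 0.010), 0.55 at 120 h (SE 0.07, edgeR adjusted p = 2.0e-05) and 1.00 at 144 h (SE 0.07, edgeR adjusted p = 4.8e-08). The call at 96 h was lost in a single fit of all 69 libraries (adjusted p = 0.22), with no low-count filter (0.074), without replicate 1 (0.074) and without replicate 2 (0.14). At 48 h the difference was -0.20 (SE 0.10) with edgeR adjusted p = 0.15, against 0.0023 with the replicate block and 0.039 with no low-count filter. The genotype difference changed by 0.37 from 96 to 120 h (SE 0.14, edgeR adjusted p = 0.040) and by 0.45 from 120 to 144 h (SE 0.14, edgeR adjusted p = 0.018). The first of these interactions was lost without any 1 replicate (adjusted p = 0.062, 0.24 and 0.055) and under TMM scaling (0.074), and the second without replicate 1 (0.11) and without replicate 2 (0.14).

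WT–mCherry cells also had more Cdkn1b beside p53KO cells at 96 h, with 1847, 1804 and 1906 normalised counts against 1577, 1559 and 1601 beside WT cells. The groups did not overlap, and the log2 fold change was 0.23 (SE 0.05, edgeR adjusted p = 0.018, blocked 0.00038). This call was lost without replicate 1 (adjusted p = 0.36), replicate 2 (0.15) or replicate 3 (0.075), with the 2 compared groups alone (0.060) and in the fit of all 69 libraries (0.23). At 120 h the difference was 0.20 (SE 0.07) with adjusted p = 0.12, and 0.018 with the block, and at 144 h it was 0.16 (SE 0.07) with edgeR adjusted p = 0.13. Between the WT clones Cdkn1b differed at 144 h, where WT–mCherry cells were higher than WT–emiRFP cells by 0.42 (SE 0.07, edgeR adjusted p = 0.0013). At 0 h the difference was of the other sign, -0.43 (SE 0.15, edgeR adjusted p = 0.095), with overlapping groups. It passed in the fit of all 69 libraries (adjusted p = 0.0012), with no low-count filter (0.0073) and without replicate 1 (-0.61, adjusted p = 0.0049), and not with the replicate block (0.053).

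Cdkn1c, encoding p57, had the lowest levels at 48 and 72 h and its highest in p53KO–emiRFP cells at 144 h. It fell from 0 to 48 h by 1.30 on the log2 scale in WT cells (SE 0.08, edgeR adjusted p = 1.6e-20) and by 1.06 in p53KO–emiRFP cells (SE 0.13, edgeR adjusted p = 7.6e-10). It rose from 72 to 96 h by 1.10 in WT cells (SE 0.08, edgeR adjusted p = 1.2e-18) and by 1.48 in p53KO–emiRFP cells (SE 0.13, edgeR adjusted p = 3.6e-14), and from 120 to 144 h by 0.56 (SE 0.07, edgeR adjusted p = 5.0e-09) and 1.35 (SE 0.13, edgeR adjusted p = 1.4e-12). Between these rises it fell in p53KO–emiRFP cells, by 0.43 from 96 to 120 h (SE 0.13, edgeR adjusted p = 0.0058), a call lost without replicate 2 (0.20). At 72 h WT–emiRFP cells had 618, 599 and 686 normalised counts and p53KO–emiRFP cells 869.5, 743 and 745. The groups did not overlap, but the difference of 0.31 (SE 0.12) did not pass in edgeR (adjusted p = 0.064), whereas it passed with the replicate block (0.012) and in DESeq2 (0.044). At 96 h the values were 1243, 1439 and 1066 against 2085, 2526 and 1967, and at 120 h 1205, 992 and 1199 against 1702, 1529 and 1649.7. At 144 h they were 1377, 1264 and 1301 against 4375, 4133 and 3973. The p53KO–emiRFP replicates lay above all WT–emiRFP replicates at each of these times. The log2 fold changes were 0.81 (SE 0.11, edgeR adjusted p = 0.00012), 0.52 (SE 0.09, edgeR adjusted p = 0.00030) and 1.66 (SE 0.15, edgeR adjusted p = 4.3e-07) at 96, 120 and 144 h. From 120 to 144 h the genotype difference grew by 1.14 (SE 0.18, edgeR adjusted p = 3.2e-06).

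**Figure D3:**
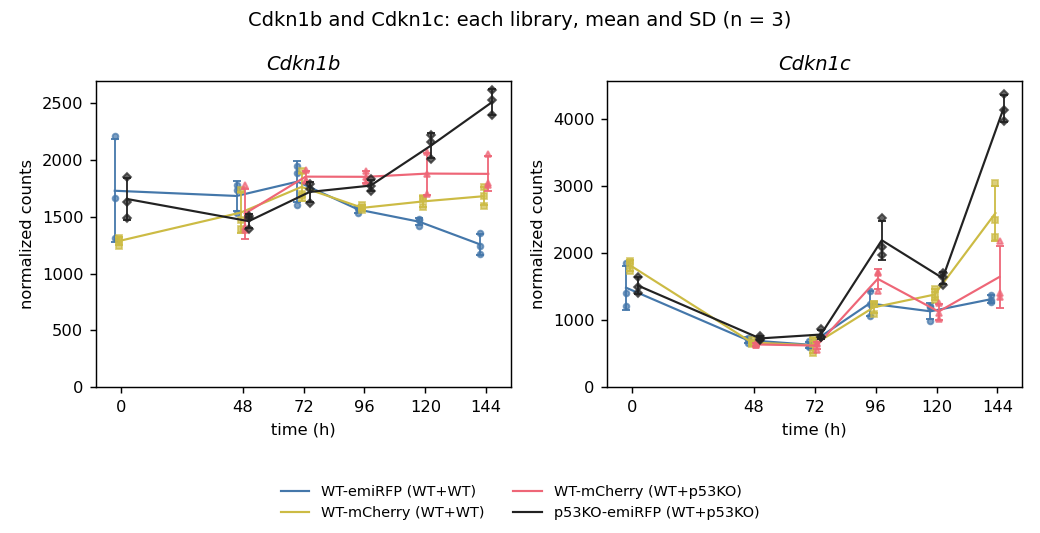
Normalised counts (y axis, linear) of Cdkn1b and Cdkn1c over time (x axis, hours) in the 4 sorted populations. Points are libraries, and lines with bars are means ± SD of 3 replicates. At 144 h p53KO–emiRFP cells are highest for both genes (means of 2512 and 4161) and WT–emiRFP cells lowest (1257 and 1314).

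Cdkn1c differed by neighbour in opposite directions at 96 and 144 h, a change over time that was not itself tested. At 96 h WT–mCherry cells had 1698, 1713 and 1439 normalised counts beside p53KO cells and 1238, 1245 and 1092 beside WT cells. At 120 h the values were 1258, 1023 and 1104 against 1377, 1304 and 1465. At 144 h they were 2184, 1342 and 1412 against 2501, 2243 and 3049. The groups did not overlap at any of these times: cells beside p53KO cells were higher at 96 h and lower at 120 and 144 h. The log2 fold change was 0.44 at 96 h (SE 0.11, edgeR adjusted p = 0.046, blocked 5.7e-06), -0.29 at 120 h (SE 0.09, edgeR adjusted p = 0.080, blocked 0.0018, in DESeq2 0.040 and with no low-count filter 0.020) and -0.66 at 144 h (SE 0.15, edgeR adjusted p = 0.0070, blocked 0.00059). The call at 96 h was lost under TMM scaling (adjusted p = 0.054), without replicate 1 (0.45) and without replicate 2 (0.14), and that at 144 h without replicate 3 (-0.43, adjusted p = 0.13). The replicate of 2184 counts was the library with 16.8% emiRFP RNA: without it the difference at 144 h was -0.94 (edgeR adjusted p = 0.0053), and with emiRFP RNA subtracted it was -0.91 at 144 h and -0.34 at 120 h. WT–mCherry cells had more Cdkn1c than WT–emiRFP cells in WT + WT gastruloids at 144 h, by 0.98 (SE 0.15, edgeR adjusted p = 0.00059). At 144 h the level beside p53KO cells (1646 ± 467, SD, n = 3) thus lay between those of WT–emiRFP (1314 ± 57.5) and WT–mCherry cells (2598 ± 411) of WT + WT gastruloids.

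Among the INK4 genes, Cdkn2b, encoding the cytokine-responsive p15, stood apart by genotype. At 72 h WT–emiRFP cells had 176, 194 and 158 normalised counts and p53KO–emiRFP cells 70.6, 66.7 and 48.2. At 144 h the values were 202, 199 and 189.5 against 47.4, 63.1 and 58.2. Groups did not overlap at 48, 72, 96, 120 or 144 h, with the p53KO–emiRFP libraries lower each time. The log2 fold change was -0.92 at 48 h (SE 0.14, edgeR adjusted p = 0.00014), -1.50 at 72 h (SE 0.15, edgeR adjusted p = 2.2e-06) and -1.05 at 96 h (SE 0.17, edgeR adjusted p = 0.00049). It was -1.38 at 120 h (SE 0.23, edgeR adjusted p = 0.00018) and -1.81 at 144 h (SE 0.16, edgeR adjusted p = 3.1e-07), and each of these 5 calls held under every alternative. At 0 h the groups overlapped (121, 85.7 and 66.4 against 52.9, 58.4 and 66.7) and the difference of -0.63 (SE 0.27) did not pass (edgeR adjusted p = 0.22), although it did in the fit of all 69 libraries (0.028). Cdkn2b did not differ detectably by neighbour at any time, with log2 fold changes of -0.08 to 0.22. WT–mCherry cells had less Cdkn2b than WT–emiRFP cells at 144 h (-0.49, SE 0.15, edgeR adjusted p = 0.029), a call lost without each of the replicates (adjusted p = 0.088, 0.11 and 0.17), and at 48, 72, 96 and 120 h this difference passed with the replicate block and not in the main comparison (blocked adjusted p = 0.041, 0.031, 0.0069 and 0.021). It also passed at 72 h without replicate 3 (0.040) and at 96 h in DESeq2 (0.039) and with no low-count filter (0.017).

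Cdkn2a, encoding p16Ink4a and p19Arf, rose through the time course and differed between the WT clones at every time. At 0 h WT–mCherry cells had 172, 145 and 105 normalised counts and WT–emiRFP cells 463, 293 and 275. At 144 h WT–mCherry cells had 671, 821 and 667 beside WT cells, and WT–emiRFP cells 1235, 1252 and 1119.8. The clones did not overlap at any time. The log2 fold change of WT–mCherry against WT–emiRFP cells was -1.26 (SE 0.21, edgeR adjusted p = 0.0035) at 0 h, -0.98 (SE 0.12, adjusted p = 0.00010) at 48 h, -1.01 (SE 0.11, adjusted p = 6.8e-05) at 72 h and -0.98 (SE 0.09, adjusted p = 1.6e-05) at 96 h. It was -0.89 (SE 0.10, edgeR adjusted p = 0.00058) at 120 h and -0.74 (SE 0.09, edgeR adjusted p = 0.00013) at 144 h. The call at 0 h was lost without replicate 2 (adjusted p = 0.060) and that at 120 h without replicate 1 (0.056). By genotype, p53KO–emiRFP cells had less Cdkn2a than WT–emiRFP cells at 72 h (491, 405 and 409.9 against 629, 664 and 595), with a log2 fold change of -0.53 (SE 0.10, edgeR adjusted p = 0.0015). They also had less at 144 h (841, 905 and 844), with -0.48 (SE 0.09, edgeR adjusted p = 0.00032). At 0, 48, 96 and 120 h the genotype difference was -0.14 to -0.02 and did not pass. The neighbour made no difference that passed, the nearest being 0.20 at 144 h (SE 0.09, edgeR adjusted p = 0.12, blocked 0.039).

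**Figure D4:**
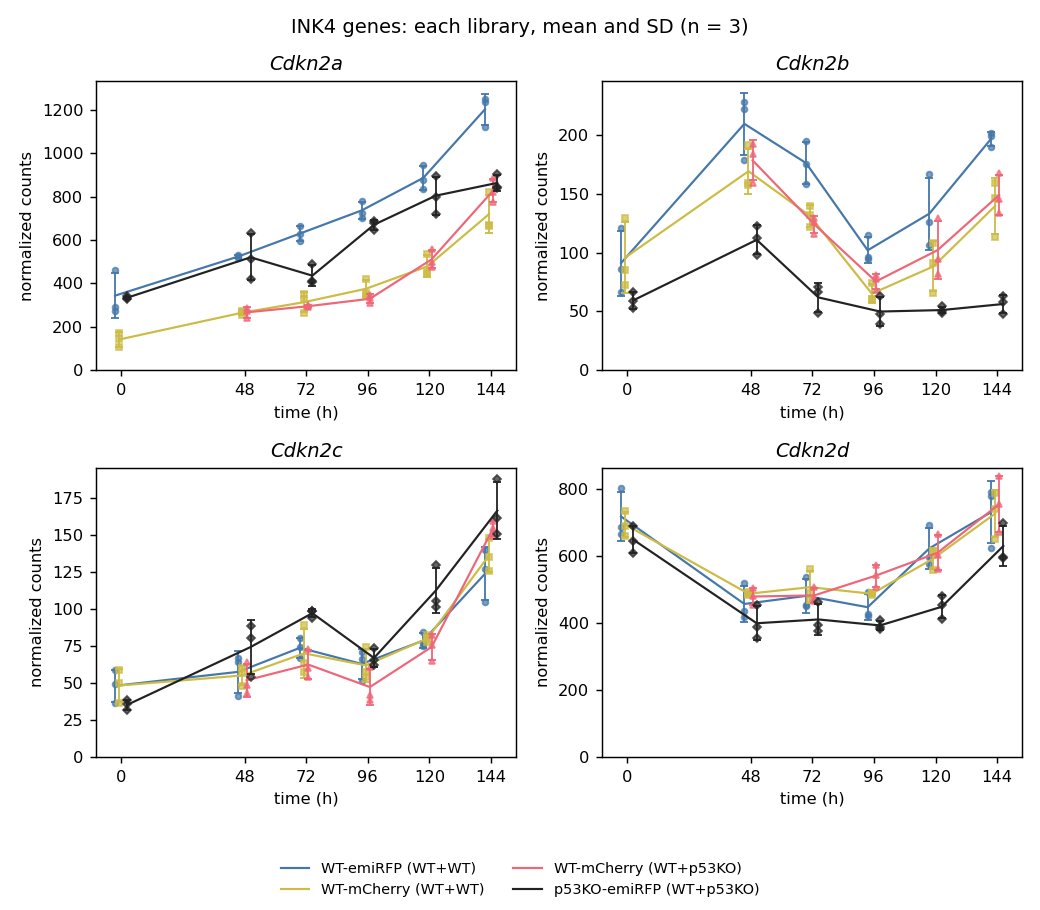
Normalised counts (y axis, linear) of the 4 INK4 genes over time (x axis, hours) in the 4 sorted populations. Points are libraries, and lines with bars are means ± SD of 3 replicates. Cdkn2a is lower in both WT–mCherry populations than in WT–emiRFP cells at every time, and Cdkn2b is lowest in p53KO–emiRFP cells.

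Over time Cdkn2a rose at each of the 5 steps in WT cells, by 0.57, 0.22, 0.21, 0.42 and 0.58 on the log2 scale (edgeR adjusted p = 1.6e-07, 0.0094, 0.012, 1.7e-06 and 5.2e-10), although the rise from 72 to 96 h was lost without replicate 1 (adjusted p = 0.064) and without replicate 2 (0.12). In p53KO–emiRFP cells it rose from 0 to 48 h by 0.63 (SE 0.13, edgeR adjusted p = 3.0e-05) and from 72 to 96 h by 0.62 (SE 0.13, edgeR adjusted p = 3.7e-05). Cdkn2b in WT cells rose by 0.97 from 0 to 48 h (SE 0.12, edgeR adjusted p = 4.6e-10) and fell by 0.38 from 48 to 72 h (SE 0.10, edgeR adjusted p = 0.0010) and by 0.84 from 72 to 96 h (SE 0.11, edgeR adjusted p = 1.9e-09). It rose again by 0.42 from 96 to 120 h (SE 0.11, edgeR adjusted p = 0.00095), a call lost without replicate 2 (0.20), and by 0.59 from 120 to 144 h (SE 0.10, edgeR adjusted p = 2.9e-06). The neighbouring genes Cdkn2a and Cdkn2b thus moved in opposite directions between 72 and 96 h. In p53KO–emiRFP cells Cdkn2b rose by 0.90 from 0 to 48 h (SE 0.20, edgeR adjusted p = 0.00013) and fell by 0.83 from 48 to 72 h (SE 0.20, edgeR adjusted p = 0.00048), and no later step passed.

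Cdkn2c, encoding p18, was the least abundant member per kb of exon in 20 of 23 conditions, with condition means of 35.2 to 166 normalised counts. In p53KO–emiRFP cells from 72 h the mean normalised counts of Cdkn2b were below those of Cdkn2c. At 120 h WT–emiRFP cells had 84.2, 76.6 and 74.9 and p53KO–emiRFP cells 129.8, 101 and 105. At 144 h the values were 139.9, 127 and 104 against 161, 187 and 150.3. The p53KO–emiRFP libraries were above the WT–emiRFP libraries at both times. The log2 fold change was 0.51 at 120 h (SE 0.14, edgeR adjusted p = 0.0085), lost without replicate 1 (adjusted p = 0.077) and replicate 3 (0.060), and 0.43 at 144 h (SE 0.14, edgeR adjusted p = 0.015), lost without replicate 2 (0.12) and replicate 3 (0.065). Over time Cdkn2c rose, fell and rose again in both genotypes. In WT cells it rose by 0.32 from 48 to 72 h (SE 0.11, edgeR adjusted p = 0.0090), lost without replicate 3 (0.079), and fell by 0.27 from 72 to 96 h (SE 0.11, edgeR adjusted p = 0.033), lost with no low-count filter (0.093), without replicate 2 (0.14) and without replicate 3 (0.13). It then rose by 0.44 from 96 to 120 h (SE 0.11, edgeR adjusted p = 0.00035) and by 0.83 from 120 to 144 h (SE 0.10, edgeR adjusted p = 2.9e-10). In p53KO–emiRFP cells it rose by 1.07 from 0 to 48 h (SE 0.21, edgeR adjusted p = 1.1e-05) and fell by 0.54 from 72 to 96 h (SE 0.18, edgeR adjusted p = 0.012), lost without replicate 2 (0.11). The later rises in these cells were 0.74 from 96 to 120 h (SE 0.18, edgeR adjusted p = 0.00059) and 0.57 from 120 to 144 h (SE 0.17, edgeR adjusted p = 0.0081), the last lost without replicate 2 (0.23).

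Cdkn2d, encoding p19Ink4d, had its highest levels at 0 and 144 h. It fell from 0 to 48 h by 0.58 on the log2 scale in WT cells (SE 0.07, edgeR adjusted p = 1.8e-11) and by 0.70 in p53KO–emiRFP cells (SE 0.10, edgeR adjusted p = 4.5e-08). It rose in WT cells from 96 to 120 h by 0.31 and from 120 to 144 h by 0.28 (SE 0.06 each, edgeR adjusted p = 7.6e-06 and 4.3e-05), and in p53KO–emiRFP cells from 120 to 144 h by 0.49 (SE 0.10, edgeR adjusted p = 0.00017), the last lost without replicate 1 (0.072). At 120 h WT–emiRFP cells had 597, 692 and 576 normalised counts and p53KO–emiRFP cells 411, 480.2 and 452. The groups were apart, with a log2 fold change of -0.47 (SE 0.10, edgeR adjusted p = 0.0011). At 48, 72, 96 and 144 h the difference was -0.23 to -0.19, in the same direction in all 3 pairs, and it passed with the replicate block and not in the main comparison (blocked adjusted p = 0.031, 0.014, 0.048 and 0.022), and at 144 h also without replicate 3 (0.048). In order of condition means, all 22 pairs of neighbouring conditions overlapped for Cdkn2d and for Cdkn2b, and 18 to 20 of 22 for Cdkn1b, Cdkn1c, Cdkn2a and Cdkn2c.

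Counted over members, the genotype comparison passed for 1 of 7 at 0 h, where 6.13% of all genes tested passed. It was 2 of 7 at 48 h (22.0% of all genes), 3 at 72 h (29.1%) and 4 at 96 h (23.3%). At both 120 and 144 h 6 of 7 passed, where the background was 51.0% and 65.3%. Of those that passed, 2 were higher and 2 lower at 96 h, and 3 higher and 3 lower at 120 and 144 h, while those at 0, 48 and 72 h were lower. With the replicate block 1, 4, 5, 5, 6 and 7 members passed at the 6 times. The block added Cdkn2d as lower at 48, 72, 96 and 144 h, Cdkn1b as lower at 48 h and Cdkn1c as higher at 72 h, and the last of these also passed in DESeq2, with no low-count filter (0.013), with the compared groups alone (0.034) and without replicate 3 (0.035). The CIP/KIP group was split within itself from 96 h, with Cdkn1b and Cdkn1c higher and Cdkn1a lower, and the INK4 group likewise at 120 and 144 h, with Cdkn2c higher and Cdkn2b lower. The shares of members were near or above the background of each time point and are not read as a property of the family.

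**Figure D5:**
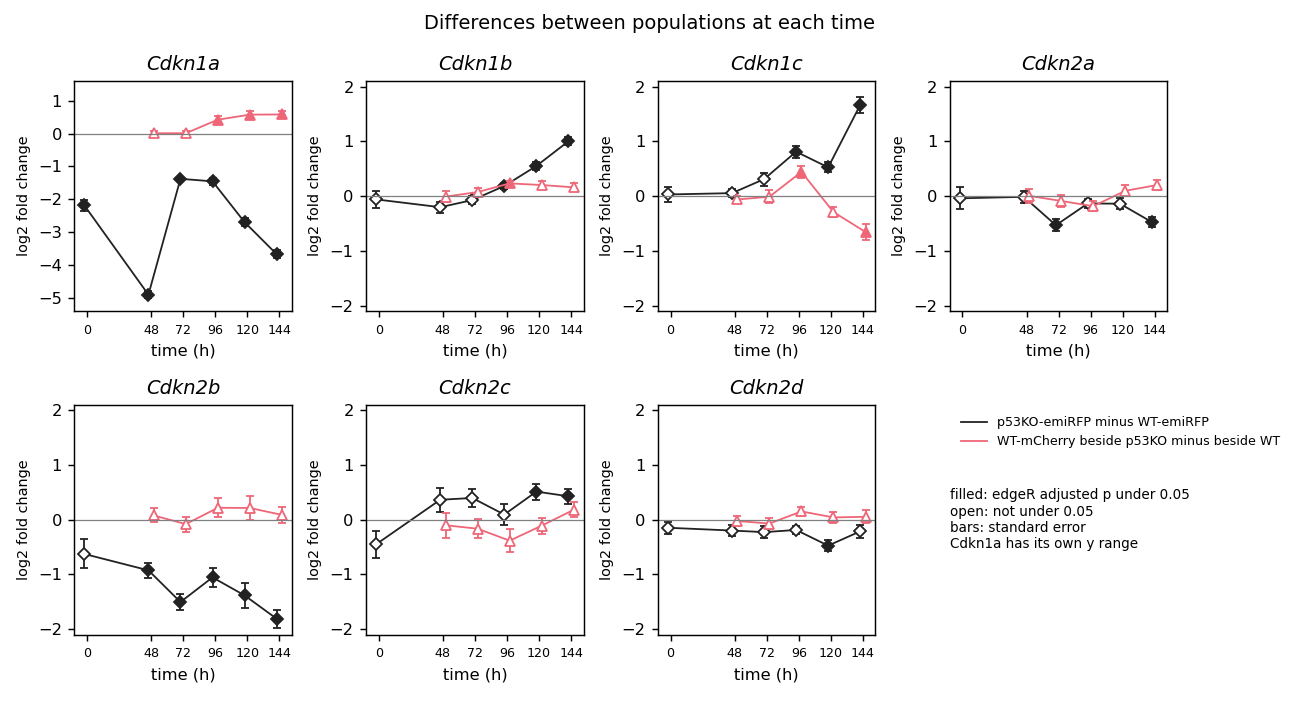
Log2 fold change ± SE (y axis) of each member at each time point (x axis, hours): p53KO–emiRFP minus WT–emiRFP cells (black diamonds) and WT–mCherry cells beside p53KO minus beside WT cells (red triangles), with filled symbols where the edgeR adjusted p was under 0.05. Cdkn1a has its own y range. For Cdkn1a the genotype difference is negative throughout and the neighbour difference positive from 96 h.

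By neighbour, none of the 7 members passed in edgeR in WT–mCherry cells at 48 or 72 h, none had an unadjusted p under 0.05 and none passed in DESeq2; 0.0735% and 0.559% of all genes passed. At 96 h 3 members were higher beside p53KO cells (Cdkn1a, Cdkn1b and Cdkn1c) against a background of 3.93%. At 120 h 1 member passed (background 5.95%, 3 members with the block) and at 144 h 2 members passed (25.5%, 3 with the block). No INK4 gene passed at any time without the block. The genotype and neighbour comparisons of a time point share one fit and the same gastruloids but no libraries. In both, Cdkn1b and Cdkn1c were higher at 96 h (0.18 and 0.81 by genotype, 0.23 and 0.44 by neighbour), whereas Cdkn1a was lower in p53KO–emiRFP cells and higher in their WT–mCherry neighbours.

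Between the WT clones 1, 2, 1, 1, 1 and 4 members passed at the 6 times, where 11.1, 8.89, 7.64, 2.15, 1.24 and 23.8% of all genes tested did. With the replicate block these counts were 1, 3, 3, 2, 4 and 5. Cdkn2a passed each time, and at 48 h Cdkn1a passed too, lower in WT–mCherry cells by 0.29 (SE 0.07, edgeR adjusted p = 0.022), a call lost without replicate 1 (0.14), without replicate 2 (0.22) and in the fit of all 69 libraries (0.15). Both WT clones carry intact Trp53. Their differences in Cdkn1b and Cdkn1c at 144 h, 0.42 and 0.98, stand beside 1.00 and 1.66 by genotype, and the 2 comparisons share the WT–emiRFP libraries.

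Across time, 5, 5, 5, 5 and 6 of the 7 members passed at the successive steps in WT cells, where 70.3, 66.9, 58.6, 56.8 and 55.4% of all genes did. In p53KO–emiRFP cells 6, 3, 4, 4 and 4 members passed (59.5, 46.4, 44.5, 34.9 and 22.7% of all genes). The genotype difference itself changed between time points for 1, 1, 0, 2 and 3 members (5.98, 1.76, 11.0, 30.8 and 16.9% of all genes). At the step with 0, from 72 to 96 h, 2 members had an unadjusted p under 0.05 in edgeR, and Cdkn1c (0.50, SE 0.19, edgeR adjusted p = 0.072) passed in DESeq2 (0.049), with no low-count filter (0.0041) and with the replicate block (0.037). Cdkn1a accounted for the calls at the first steps, and no INK4 gene passed at any step.

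The partners of these inhibitors were followed in gene lists, whose counts stand beside 6.13, 22.0, 29.1, 23.3, 51.0 and 65.3% of all genes tested that passed by genotype, in either direction, at 0, 48, 72, 96, 120 and 144 h. Of 9 other p53 target genes, 6, 6, 7, 7, 8 and 7 were lower in p53KO–emiRFP cells at 0, 48, 72, 96, 120 and 144 h and 1 was higher, at 144 h. Their median log2 fold change ran from -1.89 to -1.25, where the median of all genes tested ran from -0.01 to 0.05. Cyclin G1 (Ccng1) was lower at all 6 times, with log2 fold changes of -4.99 to -3.24, and so was Mdm2, the ubiquitin ligase that degrades p53, with -1.89 to -1.03. Zmat3, an RNA-binding protein, was lower at all 6 times too (-2.06 to -1.56), and Polo-like kinase Plk2 at 5 of 6. At 72 h the Cdkn1a difference stood at -1.38, that of Ccng1 at -4.80 and that of Plk2 at -5.27. In the test of that change from 48 to 72 h, 1 of the 9 passed, with a more negative difference, and none passed with a less negative one, whereas Cdkn1a changed by 3.53.

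Of 9 G1 and S phase kinases and cyclins, 6, 4, 1, 6 and 5 were higher in p53KO–emiRFP cells at 48, 72, 96, 120 and 144 h, and 0, 1, 0, 1 and 2 were lower. Cyclin D1 (Ccnd1), the partner of Cdk4 and Cdk6 that INK4 proteins compete with, was higher at 5 times, from 0.17 at 96 h to 1.82 at 144 h. Ccnd2 was lower at 72 h (-0.57) and higher at 144 h (2.02). Of 11 pocket protein and E2F genes, 2, 2, 2, 3, 1 and 2 were lower at the 6 times and 0, 4, 6, 3, 6 and 5 higher. Rb1, the pocket protein downstream of the inhibitors, was lower at 5 times, most at 72 h (-2.26, SE 0.12, edgeR adjusted p = 1.4e-09), and E2f2 was higher at 5. Of 6 genes of the mitotic kinase, its cyclins and Cdc25 phosphatases, 1, 3, 1, 0 and 0 were higher and 0, 0, 0, 1 and 3 lower from 48 to 144 h.

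Among 9 genes for the turnover of CIP/KIP proteins, Skp2, the F-box protein that targets p27, was higher at 144 h by 0.56 (SE 0.09, edgeR adjusted p = 6.9e-05), the time when Cdkn1b RNA was also higher, and its cofactor Cks1b was higher by 0.48 (SE 0.05, edgeR adjusted p = 6.4e-07). Fbxl12, of the same list, was lower at 4 of 6 times, by -0.30 at most. Over this list 2, 4, 1, 5 and 5 genes were higher and 2, 3, 1, 2 and 2 lower from 48 to 144 h. Of 14 repressors and activators of the Ink4 locus, 3, 2, 0, 4 and 8 were higher and 2, 3, 4, 4 and 4 lower at these times, and Tbx3, a repressor of it, was lower at 5 of 6 times and most at 120 h (-2.31). Of 8 genes of the imprinted domain of Cdkn1c, 2, 1, 1, 2 and 2 were higher and 1, 4, 3, 2 and 2 lower, so that the domain did not move in one direction. Kcnq1ot1, the paternally expressed antisense RNA of the domain, was higher at 144 h by 1.02 (SE 0.18, edgeR adjusted p = 0.00021) and Phlda2 lower by 1.02 (SE 0.20, edgeR adjusted p = 0.00044). Over the 6 times Phlda2 passed as higher at 3 and as lower at 2, with log2 fold changes from -1.02 to 1.54. Cd81 was lower at 5 of 6 times. Among 9 regulators that act on Cdkn1a and Cdkn1b without p53, 3, 3, 2, 3 and 3 were higher and 2, 2, 5, 4 and 4 lower. Of these the forkhead factor Foxo3 was lower at all 6 times, most at 72 h (-2.71, SE 0.08, edgeR adjusted p = 2.5e-12). Beside the shares of all genes that passed, the counts of these lists are descriptions, and nothing is read from them about the lists.

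By neighbour 0.0735, 0.559, 3.93, 5.95 and 25.5% of all genes tested passed at 48, 72, 96, 120 and 144 h, so that late calls were general and are not read as a property of these lists. Of the 9 other p53 target genes, 2 were higher in WT–mCherry cells beside p53KO cells at 96 h, 3 at 120 h and 3 at 144 h, and 1 was lower at 72 h, 3 at 120 h and 1 at 144 h. Mdm2 was higher by 0.40 at 96 h (SE 0.07, edgeR adjusted p = 0.012), 0.24 at 120 h (SE 0.06, edgeR adjusted p = 0.039) and 0.49 at 144 h (SE 0.04, edgeR adjusted p = 2.0e-05), and Plk2 was higher at the same times by 0.45, 0.43 and 0.49. Foxo3 was also higher at these times, by 0.36, 0.43 and 0.50. Sfn, encoding 14-3-3σ, went the other way, lower at 72 and 120 h (-0.50 and -1.02). Of the 9 G1 and S phase genes, 2 were lower and 1 higher at 96 h, 1 was lower at 120 h and 5 at 144 h, with cyclin E1 (Ccne1), whose complex with Cdk2 is inhibited by p21, lower by 0.19, 0.34 and 0.62 on the log2 scale (edgeR adjusted p = 0.025, 0.0058 and 1.5e-05). In the imprinted domain of Cdkn1c, Cd81 was higher at 96, 120 and 144 h, the last of these a time when Cdkn1c was lower.

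The make-up of the sorted populations changed along with these late differences. The summed normalised counts of 5 mES cell markers (Pou5f1, Nanog, Klf4, Esrrb and Zfp42) were at 0 h 180419 to 190363 in WT libraries and 153955 to 161235 in p53KO–emiRFP libraries, so that markers of the labelled cell type were present in all. At 96 h these sums were 27919 to 32143 in WT–emiRFP and 18481 to 21808 in p53KO–emiRFP libraries, and at 120 h 52197 to 59345 and 10255.5 to 10936. At 144 h WT–emiRFP libraries had 72014 to 80520 of these counts and p53KO–emiRFP libraries 11001 to 16339. For 5 gastruloid mesoderm markers the sums at that time were 2113 to 3086 in the WT–emiRFP libraries and 16566 to 22405 in the p53KO–emiRFP libraries. The neural sums were 2025 to 2665 and 5013 to 6789 in the same order, and the endoderm sums 294 to 590 and 697 to 835. In WT–mCherry cells at 96 h the mesoderm markers ran from 39787 to 44616 beside WT and from 46167 to 49550.2 beside p53KO cells, and the ranges of the other 6 marker lists overlapped. At 120 h the mES cell markers ran from 41434 to 53294 beside WT and from 36741 to 37733 beside p53KO cells, the mesoderm markers from 10259 to 14144 and from 15743 to 18592, and the endoderm markers from 607 to 823 and from 1099.7 to 1438. The blood and endothelial markers ran from 3506 to 4210.3 and from 2541 to 2911 at that time, and the neural and trophoblast ranges were also apart, both lower beside p53KO cells. In WT–mCherry cells at 144 h the mES cell markers ran from 50931 to 55313 beside WT and from 55372 to 59923 beside p53KO cells, the mesoderm markers from 4645 to 6264 and from 3161 to 6504, and 4 neural markers from 4020.3 to 4525 and from 2617 to 3486. Blood and endothelial markers summed at 144 h to 7005 to 7083 in WT–emiRFP libraries against 1555 to 2031 in p53KO–emiRFP libraries. Of this list Pecam1, which the paper uses as a pluripotency surface marker, reached the highest counts (6220 in a library, against 1461 for Kdr). The sum was already 3767 to 4256 in WT–mCherry mES cells at 0 h. It is therefore not read as blood or endothelial content, here or at 120 h. The sums of 4 trophoblast markers were at 144 h 1033 to 1397 in WT–emiRFP and 303 to 449 in p53KO–emiRFP libraries, and those of 4 extraembryonic endoderm markers 149 to 369 and 39.8 to 74.1. The latter were 90.7 to 375 in WT–mCherry cells beside WT and 231 to 805 beside p53KO cells. Single genes of these lists reached 919 normalised counts (Krt7), 392 (Gcm1) and 229.9 (Elf5) for trophoblast, and 504 (Sox7) and 253 (Ttr) for extraembryonic endoderm, whereas Prl3d1 was at 0 in 65 of 69 libraries and Afp in 25, with 9.32 at most. The part of these shifts in the late differences of Cdkn1a, Cdkn1b, Cdkn1c, Cdkn2a, Cdkn2b, Cdkn2c and Cdkn2d was not tested. At 48 h, where the Cdkn1a difference was -4.90, the mES cell markers were at 37159 to 39953 in WT–emiRFP libraries and at 36222 to 40631 in p53KO–emiRFP libraries. The mesoderm markers were at 120.4 to 140.2 and 132 to 171 in the same order, and the blood and trophoblast ranges overlapped too. Apart were the neural sums (2228 to 2466 and 2637 to 3042), the endoderm sums (76.6 to 92.3 and 104 to 128) and the extraembryonic endoderm sums (30.0 to 36.5 and 16.1 to 24.5). The part of these shifts in that difference was not tested.

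The genes most like each member were taken by Pearson correlation of log2(mean normalised count + 1) over the 23 conditions, among 14078 genes, as a description: conditions share libraries' scaling, lines and time points. Cdkn1a was most like Tmbim1 (0.93), Trp53cor1 (0.92), a p53-induced non-coding RNA transcribed next to it, and Aldh1l1 (0.90). Trp53cor1 had in p53KO–emiRFP cells 4.67 normalised counts at 48 h and 39.6 at 72 h, against 29.2 and 118 in WT–emiRFP cells. Its mean was thus higher at 72 than at 48 h in both genotypes, a step in which Cdkn1a rose. Trp53cor1 was chosen by its likeness to Cdkn1a over conditions that include these, so a shared rise is partly built in. Cdkn1b was most like Lcorl (0.82), Matk (0.81) and Psenen (0.80), and Cdkn1c most like Fhod3 (0.90), Ckap4 (0.90) and Olfm2 (0.89). For the INK4 genes these were Catsperg1 (0.92), Zfp414 (0.85) and Csf2ra (0.85) for Cdkn2a, Gm32585 (0.94), Ahr (0.89) and Prr15l (0.89) for Cdkn2b, Cacng4 (0.92), Fndc5 (0.89) and Pou3f2 (0.89) for Cdkn2c, and Fam234b (0.96), Mroh4 (0.95) and Prdm16 (0.95) for Cdkn2d. Among the members themselves the highest correlation was 0.73, between Cdkn2a and Cdkn2c, and the lowest -0.54, between Cdkn1c and Cdkn2b. No pair of members was as alike as each was to its nearest other gene.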

How the data were processed

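The deposited table held raw counts of uniquely mapped reads per gene, which the authors made from stranded poly(A) libraries of sorted cells by trimming with TrimGalore 0.6.7 and alignment and counting with STAR 2.7.11b against GRCm38.p6 and Gencode v25. Which strand column of STAR was kept is not given in the sources used here. Counts were scaled by median-of-ratios size factors over the 69 libraries and tested with edgeR 4.0.16 (quasi-likelihood, R 4.3.3, limma 3.58.1) in a fit per time point of 12 libraries, 9 at 0 h, after a low-count filter. Time steps and interactions came from 1 fit of all 69 libraries, with WT cells as the mean of their sorted populations. P-values were adjusted by Benjamini-Hochberg over all genes tested, with a threshold of 0.05. Alternatives were TMM scaling, no filter, the replicate number as a block, DESeq2 1.42.0, other sets of libraries, each replicate left out and, added after seeing the data, subtraction of emiRFP RNA. The replicates came from 3 experiments done at separate times. That a replicate number marks the same experiment in every population is not given in the sources used here, and the block assumes it. Same-numbered libraries tended to deviate together, with every correlation above 0.1 in 14 of 17 comparisons. The lowest was 0.04, between the WT clones at 72 h. Exon lengths came from Gencode vM21. Named genes were the 7 members, Trp53, up to 4 genes of each list, called at most time points, and for each member the 3 genes most alike. The members, gene lists and comparisons were chosen with earlier results of these data known. The test was checked on simulated data. No 2 replicates were alike beyond sampling noise.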

Additional observations from a re-analysis of the deposited data

Results flagged for a closer look

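The genotype difference of some members changed between consecutive time points by the test of that change itself, the interaction of genotype and time step in the edgeR fit of all 69 libraries. For Cdkn1a the difference between p53KO–emiRFP and WT–emiRFP cells moved by -2.72 on the log2 scale from 0 to 48 h, by 3.53 from 48 to 72 h, by -1.24 from 96 to 120 h and by -0.98 from 120 to 144 h. For Cdkn1c it moved by 1.14 from 120 to 144 h. For Cdkn1b it moved by 0.37 from 96 to 120 h and by 0.45 from 120 to 144 h, and both of these were lost when single replicates were left out. The change of Cdkn1a from 48 to 72 h fell in an interval in which 1.76% of all genes passed the same test.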

How the results depend on the processing

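Of 224 log2 fold changes of members, 92 passed in the edgeR fits, and 67 of these passed under every alternative while 25 did not under at least 1. None that passed in any setting changed sign. Leaving out single replicates moved the number of neighbour differences that passed from 6 to between 2 and 4, and the others to between 20 and 22 (genotype, 22), 7 and 10 (WT clones, 10), 22 and 26 (WT time steps, 26), 16 and 20 (p53KO–emiRFP time steps, 21) and 5 and 6 (interactions, 7). The replicate block gave 28, 9, 27, 22 and 8 calls for genotype, neighbour, WT steps, p53KO–emiRFP steps and interactions, and for the WT clones it moved the count from 10 to 18. It ended no call. With emiRFP RNA subtracted, an alternative added after seeing the data, 7 neighbour differences passed. Of 644 mean values recomputed under TMM scaling or with a replicate left out, 3 moved by more than their SD, each under TMM. The counts of Cdkn2c, 24 to 201 in a library, limit what could be detected for it, and with 3 replicates a group an exact permutation test of 1 gene cannot go below p = 0.10.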
